A study of Mus musculus with 6 samples.

Results

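The 9 sarcomeric myosin heavy chain genes examined were Myh1, Myh2, Myh3, Myh4, Myh6, Myh7, Myh7b, Myh8 and Myh13. Each was taken as the row of the count table with that gene symbol, which made 9 of 49315 rows, and all 9 were among the 15847 genes that passed the filter on low counts. Messenger RNA was counted in gastrocnemius muscle of male C57BL6J mice, with 3 libraries from muscles given AAV9-HSA-CAAHR (replicates 31, 34 and 36) and 3 from muscles given AAV9-HSA-GFP (replicates 42, 43 and 46). AAV9 is an adeno-associated viral vector, HSA is the human skeletal actin promoter, which drives expression in muscle fibres, and CAAHR is a mouse aryl hydrocarbon receptor (AHR) made constitutively active by removal of its ligand binding domain. Virus was given at 5 months of age and muscle was collected 5 months later. Both groups carried a virus, so GFP muscles are vector controls and not uninjected muscle. The study concluded that AAV9-GFP itself brought on a local immune response in muscle. In its quantitative PCR, selected immune genes were not lower in CAAHR muscles than in mice given no virus. The study noted, from earlier work, that expression from AAV9 can be mosaic and favour fast fibres, and it raised uneven infection among fibres as a possibility in these muscles. RNA was described as taken from gastrocnemius muscle. In its fibre bundle preparations the red portion was dissected away and the rest went to mitochondrial isolation or was frozen for later assays, and whether the sequenced muscles had been divided in that way was not stated.

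A myosin heavy chain is the motor of the thick filament, and its isoform sets much of the speed and energy cost with which a fibre contracts. Adult limb fibres are classed by the isoform they contain: Myh7 in slow type I fibres, Myh2 in type IIA, Myh1 in type IIX and Myh4 in the fastest, type IIB fibres. Mouse gastrocnemius is a mostly fast muscle with a redder, more oxidative region. Myh3 (embryonic) and Myh8 (perinatal) belong to developing and regenerating fibres, Myh13 is best known from extraocular muscle, Myh6 is the main heavy chain of the adult mouse ventricle, and Myh7b is an ancient relative of the slow and cardiac genes.

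Libraries held from 43432994 to 58825752 counts. Ahr, the gene delivered, was higher in all 3 AAV9-HSA-CAAHR libraries (9.97, 22.8 and 17.3 CPM, the counts per gene scaled to the size of the library, in replicates 31, 34 and 36) than in the GFP libraries (1.87 to 2.55 CPM), and so was its target Cyp1a1 (1231, 1680 and 1517 CPM against 5.85 to 7.74 CPM). Both were highest in replicate 34. Skeletal muscle fibre markers were abundant in every library, summing to 60944 to 64177 CPM in AAV9-HSA-CAAHR muscles and 84365 to 89232 CPM in GFP muscles. Of the 8, 2 were called lower, Acta1 (mean 21799 against 36461 CPM) and Ckm (17325 against 28671 CPM), and 5 were fitted higher. Their median log2 fold change (CAAHR minus GFP) was 0.03, against 0.01 over all tested genes. Of all tested genes 4.57% were called lower by edgeR. Summed markers of B cells and plasma cells were at 9.50 to 19.2 CPM against 127 to 431 CPM, those of macrophages at 17.9 to 31.4 CPM against 39.6 to 85.4 CPM, those of adipocytes at 85.7 to 134 CPM against 103 to 212 CPM, those of Schwann cells at 45.0 to 73.2 CPM against 73.2 to 122 CPM, those of smooth muscle at 78.1 to 179 CPM against 136 to 170 CPM, and those of endothelium at 154 to 222 CPM against 155 to 194 CPM. Their part in the heavy chain results was not tested.

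Of the 9 genes, 6 lie in a cluster on chromosome 11 (GRCm38) on the plus strand, in the order Myh3, Myh2, Myh1, Myh4, Myh8 and Myh13, from base 67078300 to base 67371586. Myh6 (chromosome 14, 54941921 to 54966927) and Myh7 (54970684 to 54994626) are neighbours on the minus strand, and Myh7b lies on chromosome 2 (155611212 to 155634307). The promoter windows of the cluster genes that made up nearly all heavy chain counts are shown. Myh4, Myh1 and Myh2 share a stretch that no other window of the table holds on the strand of its gene. RefSeq windows on GRCm38.p6 run from 250 bases before to 50 bases after the annotated start, here chr11:67237562-67237861 for Myh4, chr11:67199852-67200151 for Myh1, chr11:67170777-67171076 for Myh2 and chr11:67276874-67277173 for Myh8, all on the plus strand. Capitals in Myh4, Myh1 and Myh2 mark the 1 run of at least 10 bases that all 3 share, and capitals in Myh8 mark its closest stretch, with 2 mismatches.
Myh4: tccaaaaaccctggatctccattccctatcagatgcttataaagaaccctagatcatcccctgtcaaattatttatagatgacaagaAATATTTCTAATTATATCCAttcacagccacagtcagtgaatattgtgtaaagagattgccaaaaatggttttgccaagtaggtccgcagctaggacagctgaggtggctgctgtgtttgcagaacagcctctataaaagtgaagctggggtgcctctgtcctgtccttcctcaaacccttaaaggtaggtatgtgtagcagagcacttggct
Myh1: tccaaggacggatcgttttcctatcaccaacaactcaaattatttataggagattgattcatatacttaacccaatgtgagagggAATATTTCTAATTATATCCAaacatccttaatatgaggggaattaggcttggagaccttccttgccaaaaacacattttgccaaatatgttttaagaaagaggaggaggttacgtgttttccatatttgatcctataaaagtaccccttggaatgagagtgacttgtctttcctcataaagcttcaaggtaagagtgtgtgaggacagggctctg
Myh2: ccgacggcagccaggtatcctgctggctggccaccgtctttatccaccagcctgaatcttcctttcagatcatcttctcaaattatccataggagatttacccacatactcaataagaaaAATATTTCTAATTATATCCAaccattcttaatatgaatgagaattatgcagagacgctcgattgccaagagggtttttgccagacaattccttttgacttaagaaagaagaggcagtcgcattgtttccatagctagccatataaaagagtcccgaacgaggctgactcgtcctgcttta
Myh8: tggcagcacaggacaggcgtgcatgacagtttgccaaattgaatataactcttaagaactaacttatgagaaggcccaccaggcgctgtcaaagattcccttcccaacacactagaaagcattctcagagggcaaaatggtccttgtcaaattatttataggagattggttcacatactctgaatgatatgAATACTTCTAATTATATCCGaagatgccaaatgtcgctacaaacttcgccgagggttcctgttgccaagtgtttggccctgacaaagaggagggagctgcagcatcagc
The shared run was 20 bases long and began at position -163 relative to the start in Myh4, -165 in Myh1 and -130 in Myh2. Of 32851 promoter windows in the RefSeq table, 3 held it. Only the strand of each gene was searched, for the run and for its closest stretches. The closest stretch in the windows of Myh3, Myh6, Myh7, Myh7b and Myh13 had from 7 to 11 mismatches. The 3 genes that share the run differed in sign in the comparison of the groups, with Myh4 fitted lower and Myh1 and Myh2 fitted higher in AAV9-HSA-CAAHR muscles, none of them past the test.

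The windows of Myh7 (chr14:54994500-54994799, minus strand, the more downstream of 2 RefSeq starts) and Myh7b (chr2:155610993-155611292, plus strand) are shown for the gene with the largest fitted difference and for 1 of the 2 genes called. Capitals mark matches to CANNTG, the E-box read by myogenic bHLH factors.
Myh7: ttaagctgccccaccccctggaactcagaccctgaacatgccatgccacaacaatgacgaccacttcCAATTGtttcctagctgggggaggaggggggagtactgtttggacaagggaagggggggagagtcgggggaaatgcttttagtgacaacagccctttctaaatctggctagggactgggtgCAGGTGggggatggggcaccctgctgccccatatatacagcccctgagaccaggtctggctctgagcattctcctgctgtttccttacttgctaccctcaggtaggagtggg
Myh7b: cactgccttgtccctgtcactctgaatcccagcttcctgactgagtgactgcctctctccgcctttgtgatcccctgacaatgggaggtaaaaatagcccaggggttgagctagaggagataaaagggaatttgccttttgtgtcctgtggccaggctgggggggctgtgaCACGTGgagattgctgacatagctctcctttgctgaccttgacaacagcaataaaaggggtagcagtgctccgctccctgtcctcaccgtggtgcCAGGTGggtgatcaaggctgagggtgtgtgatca
On both strands, CANNTG was found in 7 of the 9 windows and in 72.3% of all windows. TATAAA was found in 6 of the 9 (13.6% of all), and a MEF2 site in 3 of the 9, those of Myh1, Myh4 and Myh8 (3.19% of all). Each of these MEF2 matches overlaps a TATAAA match on the opposite strand. The AHR core GCGTG was found in 1 of the 9, that of Myh8 (32.4% of all). These are matches of letters within short windows.

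Introns of Myh6, Myh7 and Myh7b hold the microRNAs miR-208a, miR-208b and miR-499, whose mature strands from RefSeq are shown with their seeds (bases 2 to 8) in capitals.
miR-208a-3p: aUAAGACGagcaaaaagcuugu
miR-208b-3p: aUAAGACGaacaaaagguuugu
miR-499-5p: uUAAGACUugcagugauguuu
The strands from Myh6 and Myh7 share a seed, and that from Myh7b differs from it at its last base. Their gene rows held 0 or 1 counts in every library, and counts of poly(A) RNA do not measure mature microRNAs.

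The part of each library taken by heavy chain messages as a whole overlapped between the groups. The 9 genes summed to 7.21%, 8.97% and 8.40% of all counts in AAV9-HSA-CAAHR replicates 31, 34 and 36, and to 9.33%, 8.76% and 8.70% in GFP replicates 42, 43 and 46. The means were 8.19% ± 0.898 (SD, n = 3) against 8.93% ± 0.345 (exact two-sided permutation test, p = 0.3). With 3 libraries a group this test has 20 arrangements and cannot give a p under 0.1. Its p-values are reported for 9 isoform shares, 5 ratios between isoforms and this sum. It was also run on other scalings of the isoform levels and on shares among counts not from Myh4. Further runs covered ratios picked after the values were seen and fits with a library left out.

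The division of those counts among isoforms was examined next. Myh4 (type IIB) held 83.3%, 96.0% and 86.0% of heavy chain counts in AAV9-HSA-CAAHR replicates 31, 34 and 36, and 98.0%, 97.1% and 92.4% in GFP replicates 42, 43 and 46. Replicate 34 lay inside the GFP range, so the groups overlapped. The means were 88.4% ± 6.67 and 95.9% ± 3.003 (SD, n = 3), a difference of -7.44 percentage points (exact permutation test, p = 0.2).

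The counts not from Myh4 came mostly from Myh1 and Myh2, which mark the IIX and IIA fibres between the fast and slow ends. Myh1 held 8.83%, 2.32% and 6.57% of heavy chain counts in AAV9-HSA-CAAHR replicates 31, 34 and 36, against 1.40%, 1.43% and 4.59% in GFP replicates 42, 43 and 46. Myh2 held 6.51%, 1.48% and 6.33%, against 0.495%, 1.30% and 2.83%. For both genes replicates 31 and 36 stood above every GFP library, while replicate 34 fell below GFP replicate 46, the GFP library richest in these isoforms (exact permutation test, p = 0.2 for each).

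**Figure D1:**
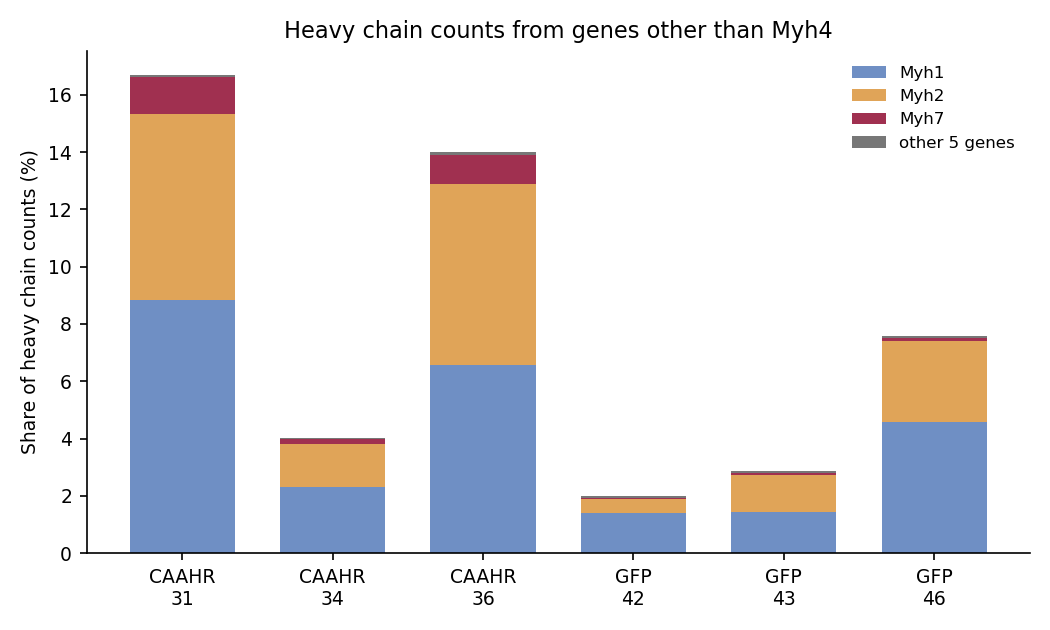
Stacked bars give the share of heavy chain counts (%) that came from Myh1, Myh2, Myh7 and the other 5 genes together, Myh4 left out, in each of the 6 libraries. CAAHR replicates 31 and 36 reach 16.7% and 14.0%, while CAAHR replicate 34 (4.03%) lies between GFP replicates 43 (2.85%) and 46 (7.57%).

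Myh7, the slow isoform, was set apart from this overlap. It held 1.28%, 0.174% and 0.998% of heavy chain counts in AAV9-HSA-CAAHR replicates 31, 34 and 36, against 0.0397%, 0.0575% and 0.0888% in GFP replicates 42, 43 and 46. Every AAV9-HSA-CAAHR library, replicate 34 included, lay above every GFP library (0.817% ± 0.575 against 0.0620% ± 0.0249, exact permutation test, p = 0.1, the smallest it can give). On the CPM scale, such a separation in that direction was present for 15% of all tested genes, in the other direction for 14.9% and in either for 29.9%.

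Myh7 was higher relative to Myh2 as well as to Myh4. The log2 ratio of Myh7 to Myh2 counts was -2.35, -3.09 and -2.67 in AAV9-HSA-CAAHR replicates 31, 34 and 36, and -3.64, -4.50 and -4.99 in GFP replicates 42, 43 and 46. The groups did not overlap, with a difference of 1.68 (exact permutation test, p = 0.1) that ranged from 1.37 to 2.04 when each library was left out in turn. Among counts not from Myh4, Myh7 made up 7.66%, 4.31% and 7.12% in AAV9-HSA-CAAHR muscles and 1.99%, 2.02% and 1.17% in GFP muscles.

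The 3 other ratios overlapped between the groups, with differences of 1.81 for Myh2 to Myh4 (exact permutation test, p = 0.2), 1.41 for Myh1 to Myh4 (p = 0.2) and 0.40 for Myh2 to Myh1 (p = 0.4), and the ratio of Myh7 to Myh4 differed by 3.48 (p = 0.1).

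**Figure D2:**
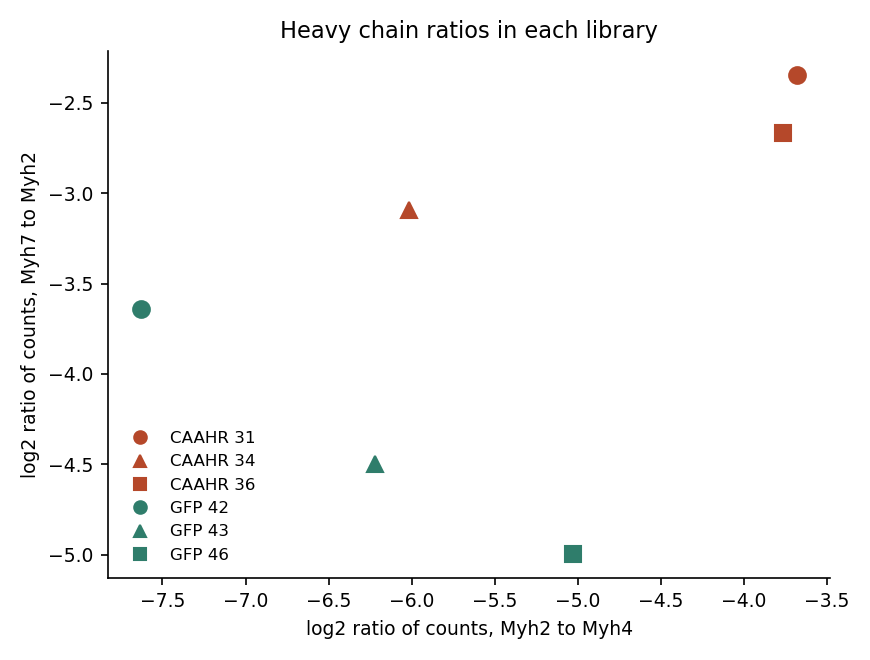
Each point is 1 library, with the log2 ratio of Myh2 to Myh4 counts on the horizontal axis and that of Myh7 to Myh2 counts on the vertical axis. The 3 CAAHR libraries lie between -3.09 and -2.35 on the vertical axis and the 3 GFP libraries between -4.99 and -3.64, while on the horizontal axis CAAHR replicate 34 (-6.02) falls among the GFP libraries. Myh2 enters both ratios, so the axes are not independent.

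The relatives of Myh7 were far scarcer and separated the groups too. Myh7b held 0.0170%, 0.00364% and 0.0135% of heavy chain counts in AAV9-HSA-CAAHR replicates 31, 34 and 36, against 0.00162%, 0.00137% and 0.00177% in GFP replicates 42, 43 and 46. Myh6 held 0.00992%, 0.00165% and 0.00872%, against 0.00103%, 0.000867% and 0.000991%. In both genes all AAV9-HSA-CAAHR libraries were above all GFP libraries, and replicate 34 was the lowest of its group by a wide margin (exact permutation test, p = 0.1 for each).

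These small shares rest on few reads in the GFP muscles, with 33 to 47 counts of Myh6 and 52 to 84 of Myh7b in a library. Myh6 and Myh7 transcripts are 90.7% identical, and 5.53% of the 150-base windows of the Myh6 transcript occur unaltered in another heavy chain transcript. As a percentage of Myh7 counts, a measure picked after the values were seen, Myh6 was at 0.775, 0.953 and 0.874 in AAV9-HSA-CAAHR muscles and at 2.59, 1.51 and 1.12 in GFP muscles. The part that misassigned Myh7 reads take in the Myh6 counts was not tested. Myh7b shares no such window with another heavy chain gene and is at most 73.2% identical to any of them. Of the cardiac markers, Myl7, Nppa, Nppb and Mybpc3 had from 0 to 4 counts in every library, and Tnni3 was at 0.138 to 0.249 CPM.

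Among the developmental isoforms, perinatal Myh8 had GFP values within the AAV9-HSA-CAAHR range. It held 0.0394%, 0.0481% and 0.0609% of heavy chain counts in AAV9-HSA-CAAHR replicates 31, 34 and 36, and 0.0512%, 0.0504% and 0.0530% in GFP replicates 42, 43 and 46 (exact permutation test, p = 0.7). Relative to Myh4, a ratio also picked after the values were seen, Myh8 was at 0.0473%, 0.0501% and 0.0708% against 0.0522%, 0.0519% and 0.0573%. The GFP libraries differed little and the AAV9-HSA-CAAHR libraries lay on either side of them.

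Embryonic Myh3 followed another order. It held 0.0124%, 0.00354% and 0.0110% of heavy chain counts in AAV9-HSA-CAAHR replicates 31, 34 and 36, against 0.00361%, 0.00565% and 0.00491% in GFP replicates 42, 43 and 46. Replicate 34 was the lowest of all 6 libraries and replicates 31 and 36 the highest (exact permutation test, p = 0.4).

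Myh13, the cluster's most downstream gene, held 0.00886%, 0.00294% and 0.00751% of heavy chain counts in the AAV9-HSA-CAAHR muscles, against 0.00225%, 0.00176% and 0.00257%. The groups did not overlap, although replicate 34 cleared GFP replicate 46 by a small margin (exact permutation test, p = 0.1).

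**Figure D3:**
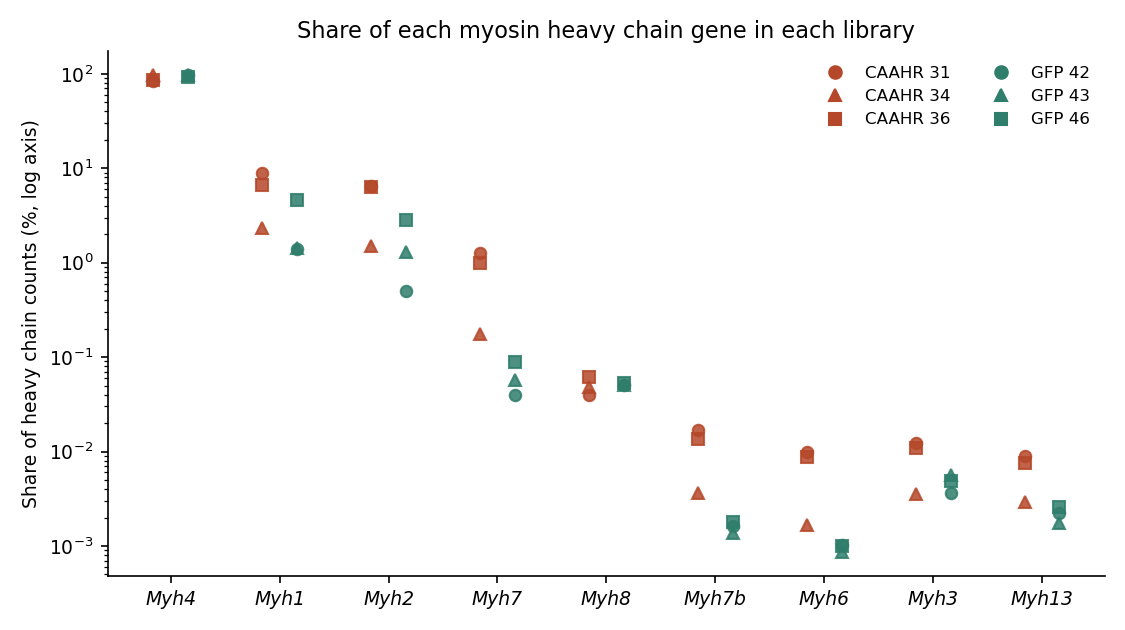
Points give the share of heavy chain counts (%, log axis) of each of the 9 genes in each library, with CAAHR at the left and GFP at the right of each gene. The 3 CAAHR points lie above the 3 GFP points for Myh7, Myh7b, Myh6 and Myh13, and CAAHR replicate 34 (triangle) is the lowest CAAHR point for each of these 4.

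Levels between genes were compared as TMM-scaled CPM per kilobase of exon. In GFP muscles Myh4 was at 14641 ± 841 (SD, n = 3), followed by Myh1 (354 ± 253), Myh2 (196 ± 147), Myh7 (6.56 ± 2.47) and Myh8 (4.02 ± 0.0975). Below them came Myh3 (0.714 ± 0.145), Myh13 (0.326 ± 0.0585), Myh7b (0.219 ± 0.0273) and Myh6 (0.131 ± 0.0134). Of neighbours in this order only Myh1 and Myh2 had overlapping values. In AAV9-HSA-CAAHR muscles the first 5 kept this order, with Myh4 at 11803 ± 2433, Myh1 at 706 ± 332, Myh2 at 510.2 ± 284, Myh7 at 71.2 ± 46.2 and Myh8 at 3.39 ± 0.982, and Myh1 and Myh2 again overlapped. The other 4, Myh7b (1.30 ± 0.700), Myh3 (1.13 ± 0.528), Myh13 (0.798 ± 0.321) and Myh6 (0.761 ± 0.468), overlapped one another.

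Across all tested genes, the edgeR quasi-likelihood test called 2 of the 9 higher in AAV9-HSA-CAAHR muscles and 0 lower at an adjusted p under 0.05, where 3.04% of all 15847 tested genes were called higher and 4.57% lower, together 7.6%. Myh7b and Myh13 were the 2 that rose. Myh7b was at 11.6, 3.27 and 10.97 CPM in AAV9-HSA-CAAHR replicates 31, 34 and 36 and at 1.53, 1.25 and 1.59 CPM in the GFP muscles, a log2 fold change of 2.56 ± 0.49 (SE; edgeR, Benjamini-Hochberg adjusted p = 0.0302). Myh13 was at 6.07, 2.64 and 6.09 CPM against 2.13, 1.61 and 2.30 CPM, a log2 fold change of 1.28 ± 0.32 (edgeR adjusted p = 0.0474).

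Myh6 and Myh7 did not pass the threshold. Myh6 had a log2 fold change of 2.53 ± 0.59 (edgeR adjusted p = 0.0537) and Myh7 one of 3.44 ± 0.78 (edgeR adjusted p = 0.0691), and DESeq2 and edgeR without robust estimation called both. At an unadjusted p under 0.05 there were 4 of 9, all higher, against 11.3% of tested genes higher, 12.6% lower and 23.9% in all. The unadjusted count and the count of separated groups comprised the same 4 genes, Myh6, Myh7, Myh7b and Myh13.

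Neither the adult fast nor the developmental isoforms passed. Log2 fold changes were 1.38 ± 0.81 for Myh2, 0.997 ± 0.647 for Myh1, 0.67 ± 0.38 for Myh3, -0.25 ± 0.20 for Myh8 and -0.31 ± 0.18 for Myh4, with edgeR adjusted p-values from 0.325 to 0.501. In all, 7 genes had positive and 2 negative values, with a median of 1.28 against 0.01 over all tested genes. These are bulk libraries, in which more fibres of a type and more message per fibre cannot be told apart.

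**Figure D4:**
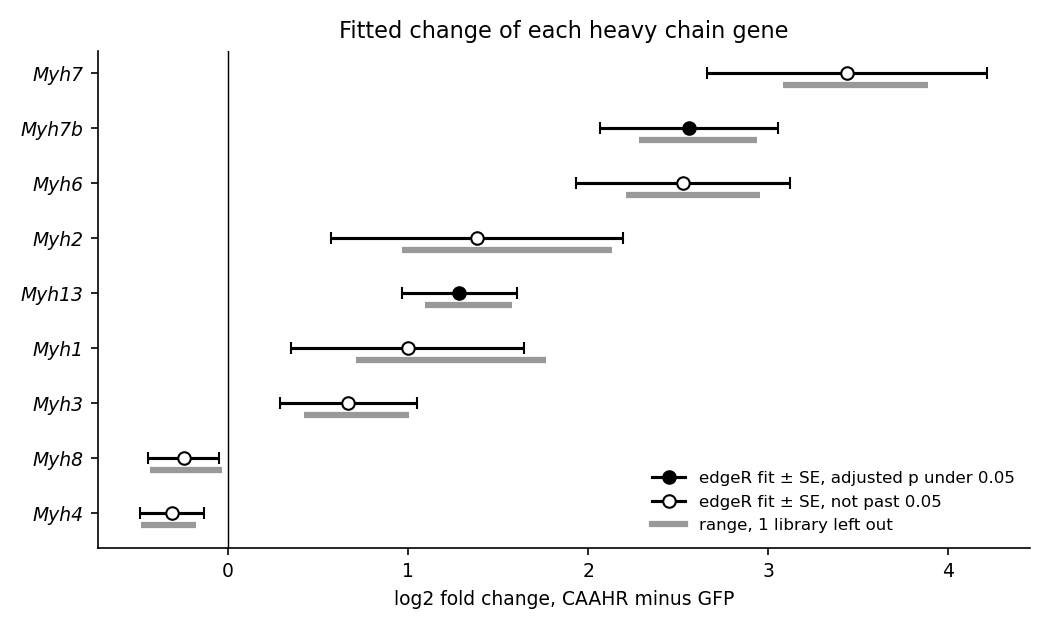
Circles give the log2 fold change (CAAHR minus GFP) of each gene from the edgeR fit with its SE, filled for an adjusted p under 0.05, and grey bars give the range of the fit when each library was left out in turn. Myh7 (3.44), Myh7b (2.56) and Myh6 (2.53) lie furthest to the right, Myh4 (-0.31) and Myh8 (-0.25) lie to the left of 0, and no grey bar crosses 0.

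The number of the 9 genes called depended on the libraries in the fit. Without replicate 34, 6 genes were called, 5 higher (Myh3, Myh6, Myh7, Myh7b and Myh13) and 1 lower (Myh4). The log2 fold change of Myh7 was then 3.89. Calls rose over all genes too, to 835 higher and 892 lower of 16180 tested, from 481 and 724 of 15847. Without any 1 of the other 5 libraries 0 of the 9 were called. In those fits the edgeR adjusted p of Myh7b was from 0.0654 to 0.137 and that of Myh13 from 0.120 to 0.151. Every fitted direction was kept in each of these 6 fits.

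The proteins that work beside each heavy chain were read from lists. Of 10 slow fibre partners, 10 had positive log2 fold changes, with a median of 2.10. The edgeR test called 0 of them, with 7 at an unadjusted p under 0.05, while DESeq2 called 7 and limma-voom 1. Over all 15847 tested genes, 8112 were fitted higher and 7735 lower, with a median of 0.01. Of all tested genes 11.3% were higher at an unadjusted p under 0.05, and DESeq2 called 815 higher and limma-voom 641. Atp2a2, the slow calcium pump, was at 756, 213 and 586 CPM against 84.4, 104 and 123 CPM (log2 fold change 2.32 ± 0.49, edgeR adjusted p = 0.0526). The slow troponins Tnni1, Tnnc1 and Tnnt1 had log2 fold changes of 3.30 ± 0.73, 3.10 ± 0.73 and 2.88 ± 0.74, close in size to that of Myh7. The slow essential light chain gene Myl6b stood at the other end, at 0.26 ± 0.17.

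Of 12 fast fibre partners, 12 had negative log2 fold changes and 3 fell in the edgeR test, with a median of -0.40. Among all 15847 tested genes, 7735 were fitted lower and 4.57% fell in that test. Tnnt3, the fast troponin T, was at 15179, 20300.3 and 15759 CPM against 26984, 27487 and 27938 CPM (log2 fold change -0.69 ± 0.15, edgeR adjusted p = 0.0264). Myl1, the fast essential light chain, had a log2 fold change of -0.72 ± 0.16 and the fast troponin I gene Tnni2 one of -0.57 ± 0.14. In these 3 genes even replicate 34 lay below every GFP library, which it did not for Myh4. None of the 3 was called in the 5 fits that left out a library other than replicate 34. Without replicate 34, 9 of the 12 were called lower, beside 892 of all 16180 genes tested in that fit.

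**Figure D5:**
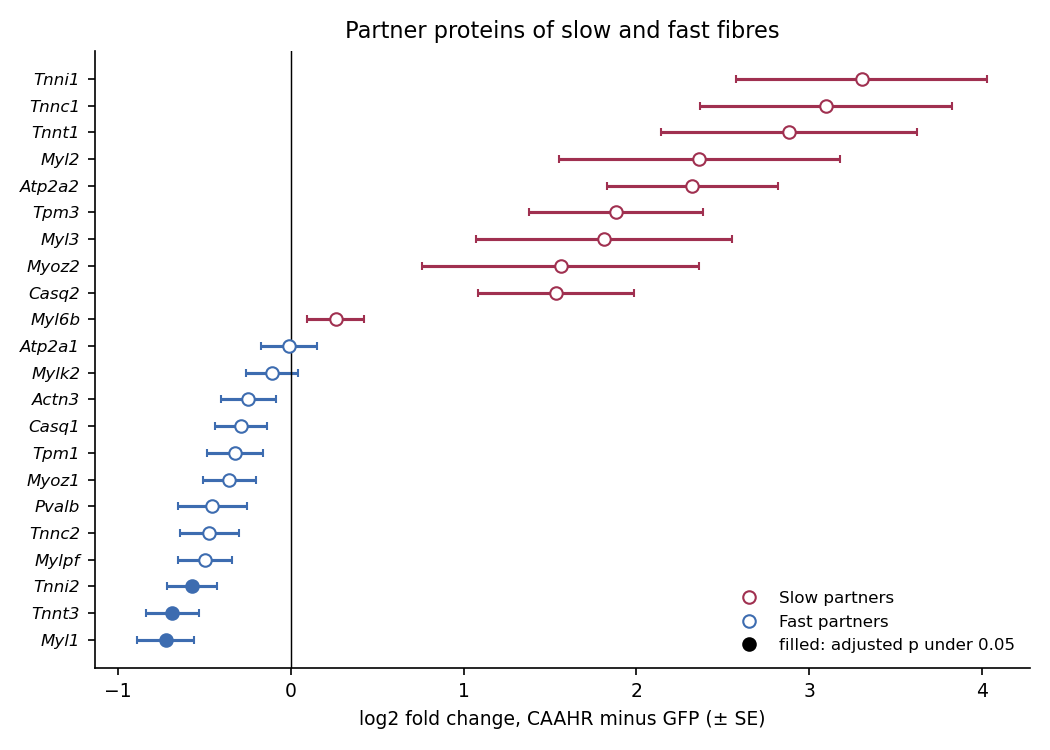
Circles give the log2 fold change (CAAHR minus GFP) with its SE from the edgeR fit for 10 slow fibre partners and 12 fast fibre partners, filled for an adjusted p under 0.05. The slow partners run from 0.26 (Myl6b) to 3.30 (Tnni1), and the fast partners from -0.72 (Myl1) to -0.01 (Atp2a1), with Myl1, Tnnt3 and Tnni2 filled.

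Of the thick filament and myosin assembly proteins, 15 of 16 were tested. The edgeR test called 0 higher and 1 lower, and 6 were higher at an unadjusted p under 0.05. DESeq2 called 4 higher (815 of all 15847 genes) and limma-voom 3 (641 of all genes). Over all tested genes edgeR called 3.04% higher and 4.57% lower, and 11.3% were higher at an unadjusted p under 0.05. Myom1, which crosslinks thick filaments at the M-band, was at 1672, 1658 and 1683 CPM against 2267, 2244 and 2274 CPM (log2 fold change -0.44 ± 0.11, edgeR adjusted p = 0.0378), and its libraries within a group were nearly equal. No gene of the list was called lower with library size only, nor in any of the 5 fits that left out a library other than CAAHR replicate 34, so its call was lost there. Its relative Myom3, found in slow and intermediate fibres, was at 198, 55.0 and 181 CPM against 19.1, 25.3 and 40.4 CPM (2.36 ± 0.59, edgeR adjusted p = 0.0871). Mybph, a myosin binding protein, ran against the order of Myh7: it was at 209, 398 and 271 CPM against 99.1, 42.2 and 38.7 CPM, highest in replicate 34 (2.29 ± 0.47, edgeR adjusted p = 0.0503). The myosin chaperone gene Unc45b had a log2 fold change of -0.33 ± 0.10 and Mybpc2, the fast myosin binding protein C, one of -0.58 ± 0.20 (edgeR adjusted p = 0.0851 and 0.104).

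Of 26 regulators of fibre type, 1 rose and 1 fell, a share near that over all tested genes (3.04% higher and 4.57% lower), so the counts say nothing particular of this list. Tead4, a TEA domain factor that binds MCAT elements of muscle genes, was at 15.1, 14.7 and 15.99 CPM against 9.95, 8.92 and 8.01 CPM (log2 fold change 0.77 ± 0.11, edgeR adjusted p = 0.00437). Nfatc2, a calcineurin-dependent factor, was at 6.82, 6.88 and 5.46 CPM against 18.4, 9.95 and 16.8 CPM (-1.24 ± 0.22, edgeR adjusted p = 0.0141). Leaving out GFP replicate 46, or either of CAAHR replicates 31 and 36, ended the call of Nfatc2, since no regulator was then called lower. In neither gene did replicate 34 stand apart from replicates 31 and 36. Rcan1, a calcineurin inhibitor whose message is raised by calcineurin, and the nuclear receptor gene Esrrg were lowest in replicate 34 of the AAV9-HSA-CAAHR muscles, at 329, 99.96 and 197 CPM against 55.9, 74.0 and 67.7 CPM for Rcan1 and at 75.3, 20.6 and 48.4 CPM against 10.9, 19.5 and 16.8 CPM for Esrrg (edgeR adjusted p = 0.0909 and 0.148). Their order among the GFP muscles, highest in replicate 43, was not that of Myh7, which was highest in replicate 46. Mef2c and Eya3 had log2 fold changes of 0.37 ± 0.12 and 0.26 ± 0.10 (edgeR adjusted p = 0.104 and 0.162).

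The developing and regenerating fibre list, read beside Myh3 and Myh8, had 10 of 13 genes tested. The edgeR test called 0 higher, with 1 at an unadjusted p under 0.05 (1 by DESeq2), and 2 lower. Over all tested genes 3.04% were called higher and 4.57% lower, and 11.3% were higher at an unadjusted p under 0.05. Actc1, the fetal and cardiac actin, was at 14.7, 8.01 and 12.5 CPM against 27.4, 29.0 and 23.5 CPM (log2 fold change -1.18 ± 0.21, edgeR adjusted p = 0.0137). Myl4, the embryonic light chain, was at 5.04, 4.60 and 5.04 CPM against 7.75, 7.93 and 7.25 CPM (-0.64 ± 0.12, edgeR adjusted p = 0.0144). Without CAAHR replicate 36 the list had 0 calls, and without GFP replicate 43 it had 1. The myogenic factor genes Myog and Myf6 had log2 fold changes of 1.02 ± 0.27 and -0.59 ± 0.20 (edgeR adjusted p = 0.0523 and 0.118). Of the 4 non-muscle and smooth muscle heavy chains, 0 were called by edgeR and 1 was at an unadjusted p under 0.05 (1 by DESeq2). That gene, the non-muscle Myh10, was at 74.5, 16.6 and 61.3 CPM against 12.2, 16.5 and 16.4 CPM, so that replicate 34 was level with GFP replicates 43 and 46. The log2 fold changes of Myh9, Myh11 and Myh14 lay between -0.10 and 0.06.

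Genes most like each isoform were found by the root mean square difference in centred log2 CPM over the 6 libraries, among 8868 genes with a mean of at least 5 CPM. Nearest to Myh7 were Tnni1 (0.125), Tnnc1 (0.184), Tnnt1 (0.266), the calcium pump inhibitor gene Pln (0.316) and Cyfip2 (0.347). Nearest to Myh2 were Myoz2 (0.168), Bdh1, Ldhb, Ankrd2 and Myl3, and nearest to Myh1 were Mb, the myoglobin gene (0.213), Fhl1, Smtnl1, Hspb7 and Lmcd1. Myh4 was closest to Actn3, the alpha-actinin of fast fibres, at 0.0385, then to Pfkfb4, Oser1, Gypc and Dnajb5. Each of the 4 adult limb isoforms thus had a different set of 5.

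Myh7b and Myh6 were both closest to Atp2a2 (0.224 and 0.304), and shared Fgf1, Myom3 and Pln among their 5. The other genes of these sets were Pcp4l1 for Myh7b and Tpm3 for Myh6. Nearest to Myh3 was Mcf2l (0.178) and nearest to Myh8 was Hook2 (0.0845). The set of Myh13 was Armcx4 (0.156), Ablim1, Lgals4, Gm11716 and Enah. A flat gene has a small difference from other flat genes, which is why values are not compared between isoforms.

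Antisense genes overlap several of these loci, and counting was described as strand-specific only where the library preparation was, which was not stated for these libraries. Myhas covers 515 exonic bases of Myh1 (8.11% of its exons) and was at 51.8, 58.5 and 50.03 CPM against 60.7, 46.4 and 60.7 CPM. 9430073C21Rik covers 237 exonic bases of Myh2 and was at 12.04, 6.11 and 14.6 CPM against 2.03, 3.48 and 6.21 CPM, which is the order of Myh2 on the same scale within each group (4459, 1334 and 5136 CPM against 469, 1191 and 2536 CPM). The long non-coding RNA 2310065F04Rik, known as linc-Myh and transcribed near the cluster, was at 89.8, 108 and 69.5 CPM against 114, 120 and 117 CPM (log2 fold change -0.39 ± 0.15, edgeR adjusted p = 0.143). Mhrt, antisense to Myh7, had 4, 3 and 12 counts against 0, 0 and 1.

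Reads were counted only where they mapped uniquely, and the isoforms differ in how much of their transcript allows this. The share of 150-base transcript windows found unaltered in another heavy chain gene was 2.49% for Myh1, 2.06% for Myh2, 0.511% for Myh4, 1.60% for Myh8 and 5.43% for Myh7. It was 1.39% for Myh13 and 0.306% for Myh3. Myh1 and Myh2 transcripts are 90.2% identical, Myh1 and Myh4 89.6%, and Myh4 and Myh7 77.7%. The 95% Wilson interval of a share reached at most 0.0393 percentage points on either side, for Myh4, whose SD between libraries was 6.67 and 3.003 points. In GFP muscles the interval reached further on either side than the SD for the scarce Myh6, Myh7b, Myh8 and Myh13. For Myh6 it was 0.000286 to 0.000300 points beside an SD of 8.47e-05, and for Myh8 0.00207 to 0.00226 points beside 0.00131. The reach of a 95% interval is wider than the standard error of counting, so it and an SD are unlike measures. A longer reach by itself thus does not place the spread between libraries below counting error, whose standard error was not computed. These intervals cover counting error only, and reads without molecular identifiers are not independent molecules.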

How the data were processed

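The authors deposited unnormalised counts for each gene. They selected poly(A) RNA, sequenced paired ends of 150 bases, trimmed reads with Trimmomatic 0.36, aligned them to GRCm38 with STAR 2.5.2b and summed uniquely assigned exonic reads with featureCounts. Counting followed strand if the preparation kept it, which was not stated for these libraries. No column was pooled. Rows without a symbol (174, with 0.0154% of counts) were kept.

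Genes were filtered with filterByExpr, TMM-scaled and tested in edgeR 4.0.16 (R 4.3.3) by the robust quasi-likelihood F test, with Benjamini-Hochberg adjustment over all tested genes at 0.05. Values per library are TMM-scaled CPM. Shares and log2 ratios (counts plus 0.5) were compared with exact two-sided permutation tests. DESeq2 1.42.0, the authors' test, and limma 3.58.1 voom were alternatives. Positions and exonic lengths came from GENCODE M21 (GRCm38), sequences from RefSeq (GRCm38.p6), with transcripts aligned in Biopython 1.88. Samples were grouped by title. The labels do not say that the libraries came from separate animals, so p-values measure the spread between these samples. Members and lists were chosen with earlier results of these data known. Named were all 9 genes, list genes with an adjusted p under 0.05, otherwise the 4 with the smallest p, and the 5 most like each isoform, except that for Myh3 and Myh8 the nearest gene is given and the rest of the set is not reported here. The edgeR fit was tested on simulated counts, and the other calculations were not. Genes named outside this rule were chosen after their values were seen.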

Additional observations from a re-analysis of the deposited data

How the results depend on the processing

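No paired analysis was possible because no replicate number occurs in both groups. Every fitted direction of the 9 genes was kept under all 15 alternatives. Of these genes, 2 were called as reported, against 1 with upper quartile scaling, 1 without a filter on low counts and 1 with at least 10 counts in every library. Library size only called 3 and heavy chain counts as library size called 3, each with Myh6 added. DESeq2 called 4, edgeR without robust estimation 4, and fits with a library left out from 0 to 6. With limma-voom the 2 called were Myh7 (limma-voom adjusted p = 0.0414) and Myh13 (0.0375), and Myh7b was not called (0.0523). Myh7b and Myh13 each lost their call under 7 alternatives, 5 of them the fits without a library other than CAAHR replicate 34. Over their alternatives the adjusted p of Myh7 ran from 0.000118 (DESeq2) to 0.229 and that of Myh6 from 7.52e-07 (DESeq2) to 0.204.

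Over all genes, 1205 were called as reported, 1923 with DESeq2, 2470 without a filter on low counts and, with a library left out, at least 530.0 (CAAHR replicate 36 omitted) and at most 1727 (CAAHR replicate 34 omitted). The split of 481 higher and 724 lower became 358 and 990 with upper quartile scaling, 876 and 600 with library size only, and 785 and 323 with heavy chain counts as the library size, which moved the median of all genes to 0.23 on the log2 scale.

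With DESeq2, calls were 7 of the slow partners (0 as reported), 5 of the fast partners (3), 7 of the thick filament genes (1), 5 of the regulators (2), 4 of the developing fibre genes (2) and 1 of the non-muscle heavy chains (0). Without robust estimation they were 6 slow partners, 3 thick filament genes, 4 regulators and 1 non-muscle heavy chain. That setting called 1279 of all 15847 tested genes, 522 higher and 757 lower. Without a filter on low counts the calls were 6 fast partners, 3 thick filament genes, 4 regulators and 4 developing fibre genes. Thick filament calls were 2 with DESeq2 size factors, 2 with upper quartile scaling and 6 with limma-voom. Slow partner calls were 1 with limma-voom and 1 with library size only. Over all genes, DESeq2 size factors called 1224, upper quartile scaling 1348, limma-voom 1402 and library size only 1476. With a library left out, calls ran from 0 to 6 for slow partners, 0 to 9 for fast partners, 0 to 5 for thick filament genes, 1 to 5 for regulators, 0 to 3 for developing fibre genes and 0 to 1 for non-muscle heavy chains.

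The 1 result that reversed was the Myh8 share of heavy chain counts, -0.00205 percentage points as reported, which ran from -0.00777 to 0.00298 (without CAAHR replicate 31). The causes of these differences were not tested. Depth limits the scarce isoforms, such as Myh6 with 33 to 47 counts in a GFP library, and 3 libraries a group limit every test.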
